A study of Mus musculus with 6 samples.

Results

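The genes described here code for 10 alpha subunits of the integrins, Itga1, Itga2, Itga3, Itga4, Itga5, Itga6, Itga7, Itga9, Itga11 and Itgav, out of 55421 genes in the count table. They were picked by gene name after their difference between the study's groups had been seen, so their fold changes describe them and carry no test. The 8 other mouse integrin alpha genes in the table are given beside them. RNA was sequenced from C2C12 cells, a mouse skeletal myoblast line, that stably carried CUG200, a GFP transgene with 200 CTG repeats after its coding region, used as a culture model of myotonic dystrophy type 1 (DM1). All libraries carried that transgene and were taken at day 4 of differentiation in low-serum medium with insulin. The control group held 3 libraries from cells given the empty vector pLL4.0, and the miR-322/-503 group held 3 libraries from cells in which the same vector drove the microRNAs miR-322 and miR-503. Each group was its own drug-selected line, so a difference between the lines and an effect of the microRNAs cannot be told apart. The labels do not say whether the 3 libraries of a group came from separate cultures, and p-values measure only the spread between these libraries.

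The libraries held 73532084 to 92157388 estimated counts, or 18383021 to 23039347 read pairs at 4 counts for each pair. Levels are given as TPM, transcript abundance scaled for length and depth, or as CPM, counts scaled for depth only. Muscle markers were present in every library, with a summed level of 3638 to 4065 TPM in control and 4964 to 5311 TPM in miR-322/-503, and 2 of 10, Myl1 and Tnnt3, rose past 2-fold (4.54% of all tested genes were called higher). At an adjusted p under 0.05 and any fold, 6 of 10 muscle markers rose and 1 fell (13.3% and 15.7% of all tested genes). The marker that fell was Myog, a regulator of muscle differentiation, with a log2 fold change of -0.74 (edgeR adjusted p = 0.000348), and Mymk and Myh3 had log2 fold changes of -0.41 and -0.05 that did not pass the test (0.0857 and 0.729). Endothelial markers summed to 0.573 to 0.835 TPM in control and 1.61 to 2.47 TPM in miR-322/-503. Most of that sum was Tek (0.457 ± 0.0600 TPM in control and 1.76 ± 0.371 TPM in miR-322/-503, n = 3), while the mean of Vwf was 0.193 TPM in control and 0.0991 TPM in miR-322/-503, and Pecam1, Cdh5 and Kdr had at most 12 counts in any library. Leukocyte markers summed to at most 0.518 TPM with 4 of 8 at 0 in all libraries, and epithelial markers to at most 0.692 TPM with 1 of 5 at 0 in all libraries. The part of the muscle marker and Tek differences in the values below was not tested. In bulk RNA, fewer cells of a type and less RNA in each cell cannot be told apart. The precursor genes of the overexpressed microRNAs were hardly read in libraries of this kind. Mir322 had 1, 7 and 2 estimated counts in control and 17, 0 and 3 in miR-322/-503, and Mir503 had 1, 1 and 2 against 6, 4 and 5, so these libraries do not check the overexpression.

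Integrins are receptors that span the cell membrane and tie the extracellular matrix to the cytoskeleton. Each is made of 1 alpha and 1 beta subunit, and the alpha subunit largely sets which ligand is bound. The alpha1, alpha2 and alpha11 subunits pair with beta1 to bind collagens, alpha3, alpha6 and alpha7 form laminin receptors, alpha5 and alphav bind ligands with the Arg-Gly-Asp (RGD) motif such as fibronectin and vitronectin, and alpha4 and alpha9 form a small class of their own that binds fibronectin, VCAM-1 and other ligands. In skeletal muscle alpha7beta1 is the main laminin-binding integrin of the mature fibre, while alpha5 and alpha4 are known from myoblasts and early myotubes.

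The overexpressed microRNAs are shown first, because their seeds can be looked for in the transcripts of the subunits. Both lie on the minus strand of the X chromosome, miR-322-5p at chrX:53054306-53054327 and miR-503-5p at chrX:53054027-53054049 (RefSeq, GRCm38.p6). Capitals mark bases 2 to 8, the seed.
mmu-miR-322-5p: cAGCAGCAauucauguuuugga
mmu-miR-503-5p: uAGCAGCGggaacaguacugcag
The seeds differ in their last base only. Their matches in a transcript, TGCTGCT for miR-322-5p and CGCTGCT for miR-503-5p, therefore differ in their first base and share GCTGCT. The longest annotated 3′ UTR of each gene (GENCODE M21, GRCm38) was searched on the transcript strand for both.

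A miR-322-5p match was found in 3 of the 10 genes, Itga1, Itga2 and Itgav, and a miR-503-5p match in 0 of 10. Among 11576 genes with a mean of at least 100 counts, 25.6% held the first and 5.11% the second. Among the 6612 of these with a 3′ UTR of at least 1000 bases the shares were 37.4% and 7.41%. The subunit UTRs were long, with a median of 2362.5 bases against 1228 bases for all such genes. The matched windows are printed below in transcript direction with the match in capitals, since they set Itga1, much lower in miR-322/-503, beside a barely read gene and a gene whose groups overlapped.
Itga1, chr13:114955551-114955574, minus strand: gctcaagctgaTGCTGCTttaaaa
Itga2, chr13:114835874-114835897, minus strand: ttttcaatttaTGCTGCTcctcaa
Itga2, chr13:114835259-114835282, minus strand: ctagtttcattTGCTGCTaaacaa
Itgav, chr2:83804143-83804166, plus strand: gtggtctcagcTGCTGCTgctgct
The Itgav window opens a run of 9 CTG units at chr2:83804153-83804179, so its 7 matches overlap each other.
Itgav, CTG run: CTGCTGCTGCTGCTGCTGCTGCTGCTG
A run of 9 or more CTG units stood in the longest 3′ UTR of 5 of the 11576 genes (0.0432%). The other genes, among them Itga11, Itga3, Itga4 and Itga9, held neither match in these UTRs, which says only that the letters are not there.

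**Figure D1:**
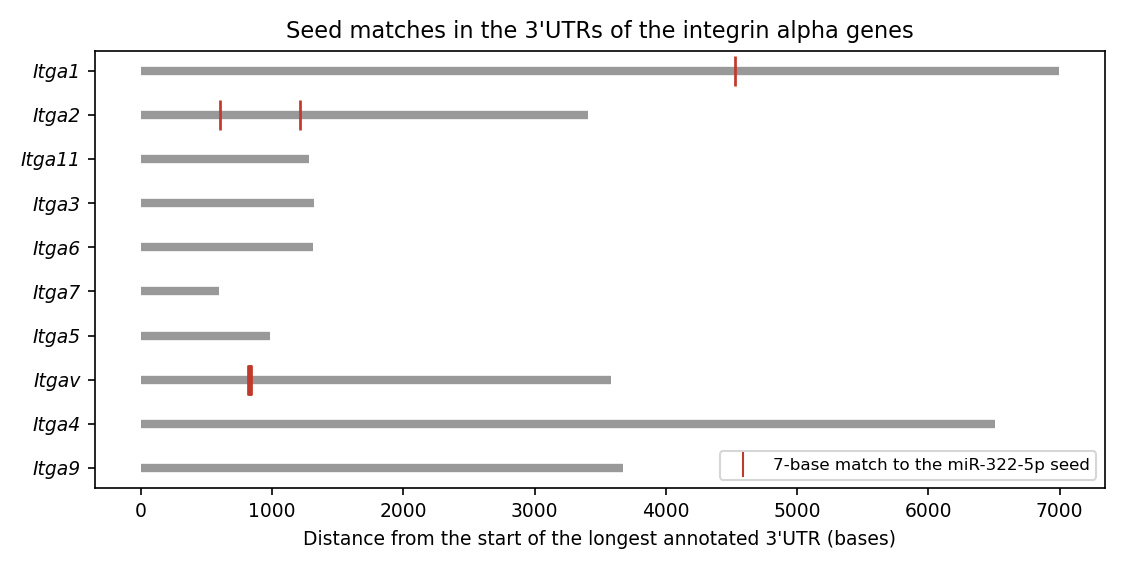
Longest annotated 3′ UTR of each subunit gene drawn to scale from the stop codon (bases), with miR-322-5p seed matches marked. Matches stand in Itga1 (1), Itga2 (2) and Itgav (7, overlapping within the CTG run), and no miR-503-5p match was found.

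By read count, Itga1 and Itga11 were the well detected collagen receptor subunits among the 10 genes, and both were lower in miR-322/-503 cells, while Itga10, outside the 10, was higher and is given with the other alpha genes. Itga1 (ENSMUSG00000042284, chr13:114953096-115101964, minus strand) codes for alpha1, a collagen receptor subunit that favours the network collagens of basement membranes. Its level was 3.98, 3.72 and 4.21 TPM in control and 0.113, 0.0949 and 0.0915 TPM in miR-322/-503. All 3 control libraries lay far above all 3 miR-322/-503 libraries. The log2 fold change of Itga1, miR-322/-503 over control, was -5.40 (SE 0.13), a level 42.2-fold lower, and it rested on 34 to 45 estimated counts in the miR-322/-503 libraries. Itga11 (chr9:62677826-62783982, plus strand) codes for alpha11, a receptor for fibrillar collagens of mesenchymal cells. It had 21.4, 20.97 and 22.3 TPM in control and 3.61, 3.65 and 3.36 TPM in miR-322/-503, again with no overlap. Its log2 fold change was -2.64 (SE 0.08), or 6.24-fold lower. Itga2 (chr13:114833081-114932100, minus strand), for the collagen receptor subunit alpha2 of platelets and epithelia, lies next to Itga1 and was barely read. It had 12, 4 and 7 estimated counts in control and 9, 13 and 0 in miR-322/-503, about the floor of 12 counts (3 read pairs), and it was not tested.

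The laminin receptor subunits went in both directions. Itga7 (chr10:128933818-128958282, plus strand), for the muscle laminin receptor subunit alpha7, had 316, 293 and 268 TPM in control and 474, 475 and 417 TPM in miR-322/-503. The groups did not overlap, and the log2 fold change of Itga7 was 0.63 (SE 0.07), or 1.55-fold higher. Itga6 (chr2:71745616-71858416, plus strand), whose product alpha6 pairs with beta1 or beta4, was also higher in each miR-322/-503 library, at a much smaller level. It had 11.1, 7.89 and 9.54 TPM in control and 13.7, 17.05 and 13.3 TPM in miR-322/-503, with a log2 fold change of 0.66 (SE 0.13). Itga3 (chr11:95044474-95076801, minus strand), for alpha3, a receptor subunit for laminins of epithelial type, was the lower one of the class. It had 75.6, 78.3 and 73.6 TPM in control and 36.7, 38.2 and 34.3 TPM in miR-322/-503, with no overlap. The log2 fold change of Itga3 was -1.05 (SE 0.05), just past the limit of 1, while that of Itga6, at 0.66, was the nearest on the other side of it.

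The RGD receptor subunits differed less. Itga5 (chr15:103344286-103366763, minus strand) codes for alpha5, which forms the main fibronectin receptor with beta1. It had 123, 119 and 114 TPM in control and 103, 104 and 87.8 TPM in miR-322/-503. Each miR-322/-503 library was below each control library, and the log2 fold change of Itga5 was -0.24 (SE 0.06), or 1.18-fold lower. Itgav (chr2:83724397-83806916, plus strand) codes for alphav, which pairs with beta1, beta3, beta5, beta6 or beta8. It had 44.5, 58.8 and 66.5 TPM in control and 39.3, 58.1 and 35.3 TPM in miR-322/-503. The groups overlapped, since the second miR-322/-503 library lay above the first control library. The log2 fold change of Itgav was -0.40 (SE 0.26), a difference within the spread of its libraries, and it moved between -0.65 and -0.24 as each library was left out.

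Itga4 (chr2:79255426-79333123, plus strand), for alpha4, which with beta1 or beta7 binds VCAM-1 and a spliced segment of fibronectin, was the member with the largest increase. It had 0.101, 0.0743 and 0.0994 TPM in control and 3.90, 4.12 and 4.15 TPM in miR-322/-503. The control libraries were near the limit of detection, with 32 to 44 estimated counts, and the miR-322/-503 libraries held 1457 to 1815. The log2 fold change of Itga4 was 5.40 (SE 0.16), or 42.3-fold higher, close in size to that of Itga1 in the opposite direction. Itga9 (chr9:118606690-118901003, plus strand), for the related subunit alpha9, had 12, 12 and 20 estimated counts in control and 0 in all 3 miR-322/-503 libraries. The first and second control libraries stood at the floor of 12 counts themselves, and only the third was above it. The control mean was 1.21-fold above the mean floor of the miR-322/-503 libraries, and no firmer size can be given at this depth.

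**Figure D2:**
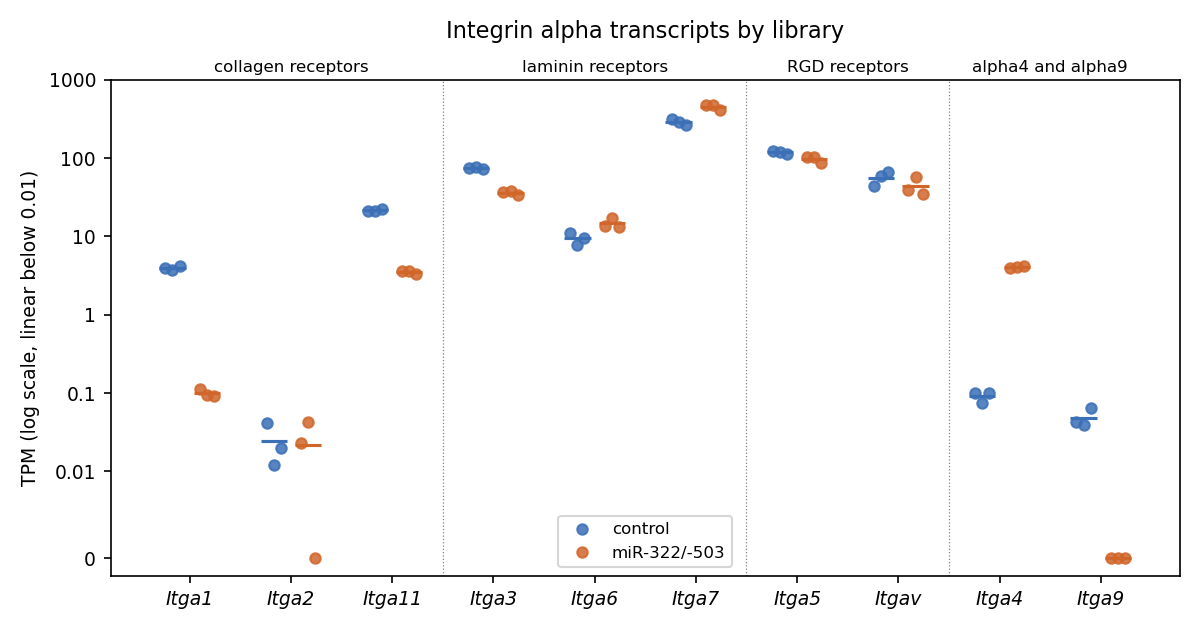
TPM of each subunit gene in each library (log axis, linear below 0.01), grouped by receptor class, with bars at group means of 3 libraries. The groups are far apart for Itga1, Itga11 and Itga4, and they overlap for Itgav and Itga2.

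Of the 10 genes 9 passed the filter on low counts, and 5 of these 9 met the call rule, an edgeR adjusted p under 0.05 with a log2 fold change beyond 1 in either direction. Itga4 was called higher (4.54% of the 18140 tested genes were), and Itga1, Itga3, Itga9 and Itga11 were called lower (5.24% were). In either direction 9.77% of tested genes were called. An adjusted p under 0.05 at any fold was met by 8 of the 9, and by 29% of tested genes. The groups did not overlap in 8 of the 9, all but Itgav, and in 45.1% of tested genes. Itga9 passed the filter on low counts only through its control libraries, so its call and its lack of overlap were partly fixed by that filter. The members were picked with this contrast in view, and nothing is read from these counts. The call of Itga3 was lost when the test was made against the fold limit itself, and that of Itga9 was lost with the replicate number as a block and without the third control library. Itga9 was too low to be tested with counts divided by 4, with at least 10 counts in every library or with limma on TPM.

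Per length, Itga7 was the most abundant of the 10 transcripts in both groups, with 293 ± 24.5 TPM in control and 455 ± 33.1 TPM in miR-322/-503 (mean ± SD, n = 3 here and below). In control it was followed by Itga5 (118 ± 4.76 TPM), Itga3 (75.8 ± 2.35 TPM), Itgav (56.6 ± 11.2 TPM), Itga11 (21.6 ± 0.705 TPM), Itga6 (9.50 ± 1.58 TPM) and Itga1 (3.97 ± 0.245 TPM). Itga4 came next at 0.0917 ± 0.0151 TPM, then Itga9 and Itga2, whose libraries overlapped and which were the only neighbours in this order to do so. In miR-322/-503 the order after Itga7 was Itga5 (98.3 ± 9.06 TPM), Itgav (44.2 ± 12.2 TPM), Itga3 (36.4 ± 1.98 TPM), Itga6 (14.7 ± 2.07 TPM), Itga4 (4.05 ± 0.136 TPM), Itga11 (3.54 ± 0.154 TPM) and Itga1 (0.0999 ± 0.0118 TPM). Here Itgav and Itga3 overlapped, as did Itga2 and Itga9. By TPM, Itga4 stood below Itga1 and Itga11 in control and above both in miR-322/-503. With TMM-normalized counts per kilobase of exon it ranked 7 in miR-322/-503, behind Itga11 at rank 6.

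The makeup of the alpha subunit transcripts shifted toward Itga7. Of the summed TPM of the 10 genes, Itga7 made up 50.5% ± 2.54 in control and 69.4% ± 1.37 in miR-322/-503. The share of Itga5 was 20.5% ± 0.158 against 14.96% ± 0.273, and that of Itga3 was 13.1% ± 0.398 against 5.55% ± 0.181. By class, the collagen receptor subunits among the 10 held 4.42% ± 0.296 in control and 0.559% ± 0.0201 in miR-322/-503, the laminin class 65.2% ± 2.35 and 77.2% ± 1.28, the RGD class 30.3% ± 2.10 and 21.6% ± 1.33, and the alpha4 class 0.0243% ± 0.00486 and 0.621% ± 0.0655. None of the 4 class shares overlapped between the groups. With TMM-normalized counts per kilobase of exon in place of TPM, the share of Itga7 was 37.7% in control and 57.7% in miR-322/-503. That of Itga11, which held most of the collagen class, was 5.75% and 0.913%. On the same scale Itga5 held 27.9% in control and 23.4% in miR-322/-503, a narrower gap than by TPM in relation to its level, and Itga3 held 17.3% and 8.26%. The summed level itself differed little. It was 596, 582 and 558 TPM in control and 674, 700 and 595 TPM in miR-322/-503, a ratio of group means of 1.13, and 1.01 on the scale of counts per kilobase. Over the TPM of Itgb1, the common beta partner, the sum was 1.09 ± 0.124 in control and 1.06 ± 0.147 in miR-322/-503.

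**Figure D3:**
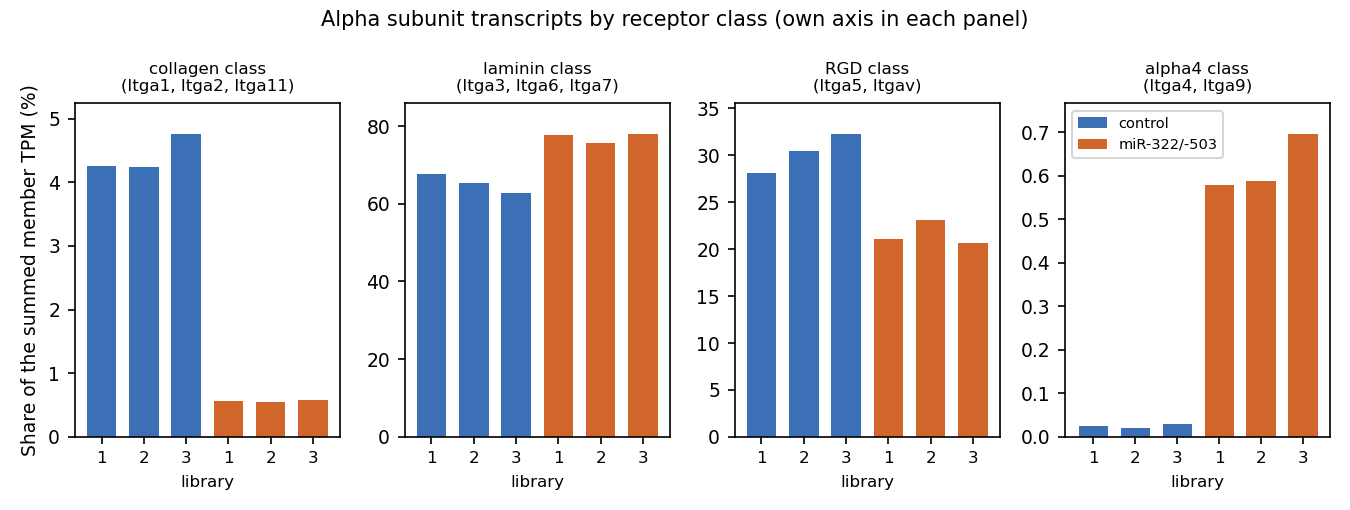
Share of each receptor class in the summed TPM of the 10 subunit genes (%), 1 bar for each library, with its own axis from 0 in each panel. The collagen and RGD shares are lower and the laminin and alpha4 shares higher in every miR-322/-503 library than in any control library.

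The beta subunits were not used to pick the genes. This list and the ligand and partner lists below were still chosen with earlier results of these data known, so their p-values are descriptions. All 9 mouse beta genes were tested, and 3 were called higher and 0 lower by edgeR (4.54% and 5.24% of all genes), with DESeq2 also calling 3, and 7 of 9 had an unadjusted p under 0.05, as did 39.5% of all tested genes. Itgb8, for the beta8 partner of alphav, rose from 0.553, 0.828 and 1.06 TPM to 3.68, 3.55 and 3.32 TPM, with a log2 fold change of 2.06 (SE 0.22, edgeR adjusted p = 0.000297). Itgb6, for beta6, another partner of alphav alone, rose from 3.28, 2.28 and 3.03 TPM to 5.82, 7.35 and 5.48 TPM, with a log2 fold change of 1.20 (SE 0.14, edgeR adjusted p = 0.000373). In both genes every miR-322/-503 library was above every control library, though the call of Itgb6 was lost against the fold limit itself (glmTreat) and with limma on log2(TPM + 1). Itgb2l, a gene close to leukocyte Itgb2, had 0, 2 and 4 counts in control and 73, 11 and 43 in miR-322/-503. All control libraries and the second miR-322/-503 library were thus under the floor of 12 counts. The miR-322/-503 group mean was 3.35-fold above the mean floor of the control libraries. Itgb2l was called higher (edgeR adjusted p = 0.0119), and it passed the filter on low counts only through its miR-322/-503 libraries. That call was lost without the first miR-322/-503 library, with glmTreat and with limma on log2(TPM + 1). Itgb2l was too low to be tested with counts divided by 4 or with at least 10 counts in every library. Itgb5, for beta5, the vitronectin receptor partner of alphav, fell by 0.36 on the log2 scale (SE 0.06, edgeR adjusted p = 0.00242), from 251 ± 1.90 to 196 ± 9.97 CPM. Itgb1, the partner of all 10 subunits, had 543, 484 and 584 TPM in control and 577, 630 and 669 TPM in miR-322/-503. Those groups overlapped, and its log2 fold change of 0.25 (SE 0.10) did not pass the test (edgeR adjusted p = 0.1002). Itgb3 had a log2 fold change of -0.18 (edgeR adjusted p = 0.0603), Itgb4 of 0.29 (0.122), Itgb2 of 0.32 (0.531) and Itgb7 of -0.02 (0.972). The median log2 fold change of the 9 beta genes was 0.29, against -0.01 for all tested genes, and it was 0.18 without the second control library and 0.10 with limma on log2(TPM + 1).

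Of the 8 other alpha genes 5 were tested, with a median log2 fold change of -0.02, which was 0.26 without the second control library and 0.24 without the third miR-322/-503 library. Itga10, for the collagen receptor subunit alpha10 of cartilage, was 4.11, 4.199 and 4.47 TPM in control and 7.81, 8.08 and 7.14 TPM in miR-322/-503. It rose by a log2 fold change of 0.77 (SE 0.09, edgeR adjusted p = 0.000462), under the fold limit, whereas Itga1 and Itga11 of the same ligand class were lower. With Itga10 counted in, the collagen receptor subunits were therefore not all on the same side, and their summed level was 29.8 ± 1.102 TPM in control and 11.3 ± 0.665 TPM in miR-322/-503, against 25.6 ± 0.945 and 3.66 ± 0.180 TPM without it. Itga8, an RGD receptor subunit, was at 0.820 ± 0.199 CPM in control and 0.110 ± 0.105 CPM in miR-322/-503, with a log2 fold change of -2.84 (SE 0.84, edgeR adjusted p = 0.0372). That call was lost without any 1 of the control libraries and without the third miR-322/-503 library. It was also lost with glmTreat and with limma on log2(TPM + 1). Itga8 was too low to be tested with at least 10 counts in every library, and it passed the main filter only through its control libraries. Itga2b of platelets and Itgae and Itgal of leukocytes did not pass the test (log2 fold changes of -0.02, -0.05 and 2.36, edgeR adjusted p = 0.963, 0.961 and 0.212). Itgal was called higher without the second control library. The leukocyte genes Itgad, Itgam and Itgax had at most 8 counts in any library, and Itgax had 0 in all.

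**Figure D4:**
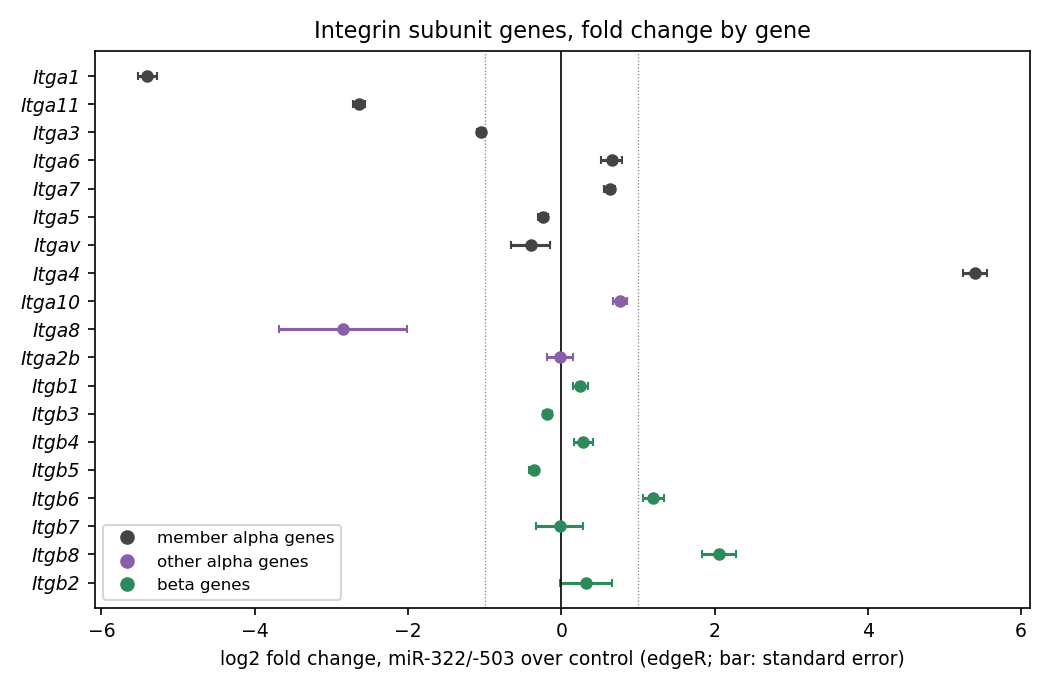
Log2 fold change (miR-322/-503 over control, edgeR) of alpha and beta subunit genes with bars of 1 SE, for 3 libraries in each group. Itga1 and Itga4 lie at -5.40 and 5.40, Itgb8 at 2.06, and most other subunits between -1 and 1. Genes at or under the floor in a group (Itga9 and Itgb2l), genes not tested (such as Itga2) and the tested low-count genes Itgae and Itgal are left out.

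The ligands of these receptors were measured in the same libraries. Of 45 ligand genes 42 were tested, 2 were called higher and 16 lower, with a median log2 fold change of -0.64, beside 4.54% and 5.24% of all genes and a median of -0.01. Among the collagens 5 of 10 tested genes were called lower and 0 higher. Col4a1 and Col4a2, the basement membrane collagen chains that alpha1 is known to bind, fell by 2.17 (SE 0.09) and 1.82 (SE 0.07) on the log2 scale (edgeR adjusted p = 1.64e-06 and 1.61e-06). Col4a1 was at 560 ± 25.6 CPM in control and 124 ± 13.03 CPM in miR-322/-503. Col1a2, a chain of the main fibrillar collagen, fell by 1.19 (SE 0.04, edgeR adjusted p = 9.4e-07), whereas Col1a1, the other chain of the same collagen, rose by 0.53 (SE 0.05, edgeR adjusted p = 0.000197), under the fold limit. The laminin genes went both ways, as the laminin receptor subunits did. Of 11 tested, 1 was called higher and 1 lower, with a median of 0.19, or 0.02 with limma on log2(TPM + 1). Lama4, an alpha chain known from endothelial basement membranes, was at 70.5 ± 5.89 CPM in control and 17.6 ± 1.05 CPM in miR-322/-503, a log2 fold change of -2.005 (SE 0.09, edgeR adjusted p = 2.07e-06).

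Among 16 tested RGD and other ligand genes 7 were called lower and 1 higher, with a median log2 fold change of -0.76. Postn, for the matricellular protein periostin, fell by 2.96 on the log2 scale (SE 0.09, edgeR adjusted p = 5.32e-07), with 469 ± 46.8 CPM in control and 60.3 ± 4.34 CPM in miR-322/-503. Fbln5, for the elastic fibre protein fibulin-5, fell by 2.61 on the log2 scale (edgeR adjusted p = 1.34e-07). Vtn, for vitronectin, was at or under the floor in miR-322/-503, at least 2.55-fold lower (edgeR adjusted p = 0.0155), a call that was lost without the first or the third control library, with glmTreat and with limma on log2(TPM + 1). Like Itgb2l, Vtn was too low to be tested under the stricter filter or with counts divided by 4. Vtn passed the main filter on low counts only through its control libraries. The gene called higher was Npnt, for nephronectin, a ligand of alpha8beta1. It had a log2 fold change of 1.31 (SE 0.16, edgeR adjusted p = 0.0012), and its call was lost with glmTreat. Fn1, for fibronectin, the ligand of alpha5beta1 and alpha4beta1, had the highest TPM of the named ligands and fell by 0.35 on the log2 scale, from 19611 ± 589 to 15413 ± 305 CPM (edgeR adjusted p = 0.000372). Of 5 tested ligands of alpha4 and alpha9, 3 were called lower and 0 higher, with a median of -1.47, or -0.85 with limma on log2(TPM + 1). These were Adam12 (-1.88, edgeR adjusted p = 1.15e-06), Emilin1 (-1.60, 8.22e-06) and Svep1 (-1.47, 0.000277), whose call was lost with limma on log2(TPM + 1). Vcam1, the cell surface ligand of alpha4beta1, fell by 0.46 on the log2 scale (edgeR adjusted p = 0.000643), from 144 ± 5.86 to 105 ± 4.04 CPM, in the cells in which Itga4 was higher.

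Genes that act on integrins inside the cell or beside them in the membrane are known to switch integrins on, to link them to actin or to signal from them. By edgeR 0 of 23 tested activators and linkers, such as talins and kindlins, were called, 0 of 12 adhesion kinases and adaptors and 0 of 9 tetraspanins and other lateral partners, beside 9.77% of all tested genes. DESeq2 also called 0 in each list, and the counts at an unadjusted p under 0.05 were 15, 5 and 6, beside 39.5% of all tested genes. At an adjusted p under 0.05 and any fold, 6 activators and linkers were higher and 6 lower, which is 12 of 23 beside 29% of all tested genes. Of the 12 kinases and adaptors 2 were higher and 1 lower, and of the 9 tetraspanins and lateral partners 2 were higher and 3 lower. The median log2 fold changes were -0.12, 0.14 and 0.09. Itgb1bp2, for melusin, a muscle partner of beta1, had a log2 fold change of -0.12 (edgeR adjusted p = 0.502).

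**Figure D5:**
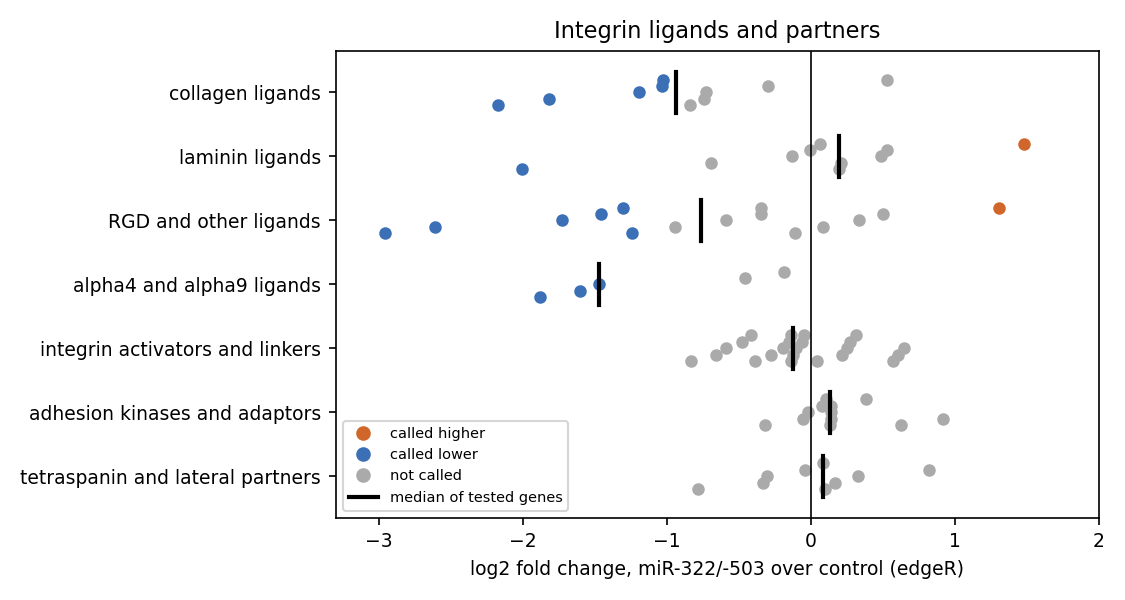
Log2 fold change (miR-322/-503 over control, edgeR) of the tested genes in 7 lists of ligands and partners, with black bars at list medians. The collagen, RGD and alpha4 ligand lists have medians of -0.93, -0.76 and -1.47 and the other lists lie nearer 0, and Vtn and Lama1, at or under the floor in a group, are not drawn.

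Some of the subunit genes overlap other genes in the annotation, and the strand setting of the counting was not given in the sources used here. Pelo lies inside Itga1 on the same strand with 0 shared exon bases, and its log2 fold change was -0.25 (edgeR adjusted p = 0.325) beside the -5.40 of Itga1. Cerkl lies on the opposite strand from Itga4, shares 1124 exon bases with it and had at most 15 counts in any library, far below the 1457 or more of Itga4 in miR-322/-503. Gm13684 shares 634 exon bases with Itgav on the opposite strand and had at most 24 counts. Gm49395 shares 685 exon bases with Itga1 and had at most 22 counts, against 1578 or more for Itga1 in control.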

How the data were processed

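Total RNA of 6 libraries was sequenced as read pairs. Per the labels, reads were trimmed with Trim Galore, aligned to GRCm38 with HISAT2 and quantified with StringTie. Versions and the strand setting were not given in the sources used here. The authors deposited a matrix of estimated counts per gene, in which 1 read pair is worth about 4 counts, and for each library a table with coverage signal, FPKM and TPM. Levels are given in TPM, or in CPM computed with TMM factors.

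Libraries were grouped by their labels. Counts were fitted in R 4.3.3 with edgeR 4.0.16 (filterByExpr, TMM, robust quasi-likelihood test) over all 6 libraries, without a block, with Benjamini-Hochberg adjustment over 18140 genes. A gene was called where the adjusted p was under 0.05 and its fold change passed 1 on the log2 scale in either direction. The standard error is the size of the log2 fold change divided by the square root of F. The floor was 3 read pairs (12 counts), and it covers counting error only. Seeds were searched in the longest 3′ UTR of each gene in GENCODE M21. The script was tested on simulated data. Alternatives were DESeq2 1.42.0, RLE factors, other filters, counts divided by 4, glmTreat, limma 3.58.1 on log2(TPM + 1) and log2(TPM + 0.1), a replicate block and leaving out each library. FPKM and counts per kilobase replaced TPM for levels. Protein sequences were not analysed here. The members and lists were chosen with earlier results of these data known. All members, all beta genes, the tested other alpha genes, the 3 largest called genes of each list, and Fn1, Vcam1, Itgb1bp2 and overlapping genes are named. A result that this rule would name is not reported here. Col1a1, Npnt and the markers named singly were added after their values were seen.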

Additional observations from a re-analysis of the deposited data

How the results depend on the processing

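No log2 fold change of the 9 tested members turned direction under any alternative that gave one. With limma on log2(TPM + 1), the fold changes of Itga1 and Itga4 were -2.18 and 2.21, which the pseudocount shrinks at these low levels. Testing against the fold limit (glmTreat) left 395 genes higher and 529 lower, against 823 and 950. It left 1 beta gene, 0 other alpha genes lower, 3 collagens lower and 0 RGD ligands higher. Limma on log2(TPM + 1) left 391 genes higher, 566 lower, 1 beta gene higher and 0 other alpha genes lower. At least 10 counts in every library also left 0 other alpha genes lower. Leaving out 1 library gave 0 to 1 other alpha genes in either direction. The summed member TPM ratio was 1.01 with counts per kilobase. With the replicate number as a block, 754 genes were higher and 902 lower. Same-numbered libraries correlated at 0.241, 0.137 and 0.0960 in their deviations, each library best with its own number. The pairing was not taken as given, because the lowest of these is not over 0.1 and the labels name no shared culture or batch. Directions turned for Itgb4 (-0.0136 and -0.0175 with limma on TPM, pseudocounts 1 and 0.1) and Itgb7 (0.0285 with counts divided by 4, 0.00921 and 0.0154 with limma). Without 1 library, Itgb7 ranged from -0.234 to 0.208, Itga2b from -0.0993 to 0.0820 and Itgae from -0.382 to 0.258. The causes were not tested. Depth limits Itga2 and Itga9, which lie about the floor.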

Other observations

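The subunit genes lie on 6 chromosomes, and some neighbours can be read beside them. The tested genes of chromosome 9, which holds Itga11 and Itga9, had a median log2 fold change of -0.27 over 1014 genes, against -0.01 over all autosomes. The 10 tested genes nearest to Itga11 had a median of -0.27, with a range from -0.62 to -0.01, beside the -2.64 of Itga11 itself. On chromosome 13 the median was 0.15 over 749 genes, and the genes nearest to Itga1 had a median of 0.03 and a range from -2.38 to 1.19 beside its -5.40. The genes nearest to Itga4 on chromosome 2 had a median of 0.12 and a range from -0.56 to 3.95 beside its 5.40, and its flanking genes Ube2e3 and Itprid2 had log2 fold changes of -0.00 and 0.78. The part of the chromosome 9 difference in the value of Itga11 was not tested.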
